A study of Mus musculus with 8 samples.

Results

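The genes described here are 34 genes of fatty acid oxidation and targets of PPAR-alpha, measured in mouse kidney. They were chosen by name, but with earlier results of these data known. Of the 36868 genes named on the array, 34 are members. They were read by 45 probes, and 10 members had more than 1 probe. The members cover fatty acid uptake and binding, the carnitine shuttle, mitochondrial and peroxisomal oxidation, acyl-CoA thioesterases, regulators and other PPAR-alpha targets.

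PPAR-alpha is a nuclear receptor that binds fatty acids, pairs with a retinoid X receptor and switches on genes for the uptake, transport and burning of fat. Long-chain fatty acids enter the mitochondrion as carnitine esters, and are then shortened there by repeated rounds of beta-oxidation, while very long chains are first shortened in peroxisomes. The proximal tubule of the kidney draws most of its energy from this pathway.

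RNA came from whole kidneys of male mice aged 20 weeks on the C57BLKS/J Iar background, with 2 mice in each of 4 groups. Normal mice were m+/m+. The other 3 groups were db/db mice (+Leprdb/+Leprdb), which lack the long leptin receptor and become obese and diabetic. One db/db group was untreated, one was given nanoparticles of PEI, a cationic polymer, with a control miRNA (control-miRNA-PEI-NPs), and one was given the miR-181b-5p mimic on such particles (miRNA-181b-5p-mimic-PEI-NPs). A mimic is a synthetic RNA that acts as the mature miRNA. No normal mice received nanoparticles, so effects of the mimic can be read in db/db mice alone. The sources used here do not give dose, route or schedule.

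The mature miR-181b-5p is shown because it is the agent of the study. It is encoded at chr1:137966650-137966673 and at chr2:38853845-38853868, both on the plus strand of GRCm38.p6, and the seed (bases 2 to 8) is in capitals. The sequence is that of RefSeq, while the chemistry of the mimic itself is not stated in the labels.
miR-181b-5p: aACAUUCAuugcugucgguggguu

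Levels are log2 intensities relative to the 75th percentile of the same array, so a level of 0 is that percentile and 1 unit is a 2-fold difference. They compare arrays for 1 gene and not genes with each other. Tests used limma on all 8 arrays, with Benjamini-Hochberg adjustment over the 22363 genes whose probe cleared background in both mice of 1 or more groups, and the threshold was an adjusted p of 0.05. Of the 34 members, 33 were tested and 31 lay well above background on all 8 arrays. With 2 mice against 2 an exact permutation test cannot give a two-sided p below 0.333. The limma tests rest on each gene's spread pooled over the 4 groups (4 residual degrees of freedom). That spread was moderated by the spread across genes (2.23 prior degrees of freedom).

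Between 56.5% and 62.5% of spots lay well above background on each array, and 0 spots were saturated. Mimic replicate 1 stood apart: principal component 1 held 45.1% of the variance, and this array scored 81.3 on it, against 17.7 for mimic replicate 2, -1.1 to 5.5 for the untreated and control miRNA mice and -55.0 and -54.9 for the normal mice. On that array the summed level of 12 proximal tubule markers was 791, against 1341 to 1619 on the other 7. That of 5 tubular injury markers, most of it Spp1, was 623, against 43.2 to 159. Spp1 was at 9.20 there, at 6.89 to 7.30 in the other db/db mice and at 5.93 and 5.40 in normal mice. Normal replicate 1 carried fat RNA: its median level over 11 fat markers was 1.54, against -4.49 to -1.02 on the other 7 arrays, and the brown fat gene Ucp1 lay well above background on that array alone. All 12 proximal tubule markers lay well above background on every array. Mice without nanoparticles filled 1 row of the slide and mice with them the other, so row and nanoparticles cannot be told apart.

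The first question was how the diabetic kidney differs from the normal kidney. In untreated db/db mice 1 of 33 members rose (Fabp1) and 1 fell (Cd36), where 3.51% of all genes passed (1.24% rose and 2.27% fell). After control miRNA 1 rose (Fabp1) and 0 fell, where 1.87% of all genes passed (0.675% and 1.19%). After the mimic 7 rose (Fabp1, Slc25a20, Acaa2, Pex11a, Acot1, Acot2, Creb3l3) and 2 fell (Cd36, Acadm), where 8.98% of all genes passed (3.05% and 5.93%). With the 3 db/db groups averaged, 5 rose (Fabp1, Fabp3, Slc25a20, Acaa2, Creb3l3) and 2 fell (Cd36, Acadm), where 11.6% passed (4.34% and 7.28%). These 4 comparisons share the same 2 normal mice.

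More members lay above the normal level than below it. The median difference from normal over the 33 members was 0.16 in untreated db/db mice, 0.10 after control miRNA, 0.51 after the mimic and 0.37 in the mean of the 3 groups. Over all genes tested, the median difference was -0.04 in the first and second of these comparisons, -0.09 for the mimic and -0.06 for the mean. Both untreated mice lay above both normal mice in 14 members and below them in 5, where 28.3% and 35.0% of all genes did. For control miRNA the counts were 14 and 4 (26.2% and 32.8% of all genes), and for the mimic 21 and 4 (21.6% and 32.2%). All 6 db/db mice lay above both normal mice in 12 members and below them in 4 (14.0% and 20.0% of all genes).

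The counts rest on few arrays. The number of all genes past the threshold moved too when 1 array was left out, and its ranges are given in the last section. The member counts below are therefore not particular to these genes. For untreated db/db, leaving out either normal or either untreated mouse left 0 members past the threshold, and leaving out either mimic mouse, which takes the spread between the mimic mice out of the fit, gave 7. For control miRNA the count was 0 without any 1 of the normal, untreated or control mice and 8 without either mimic mouse. For the mimic it was 1 (Creb3l3) without either normal mouse, 2 without either untreated mouse, 4 without either control mouse, 9 without mimic replicate 1 and 20 without mimic replicate 2. For the mean of the 3 db/db groups it was 0 without either normal mouse, 2 and 3 without an untreated mouse, 3 without either control mouse, 10 without mimic replicate 1 and 20 without mimic replicate 2. Without both normal replicate 1 and mimic replicate 1, an alternative chosen after seeing the data, 6 members passed for untreated db/db, 7 for the mimic and 9 for the mean of the 3 groups.

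**Figure D1:**
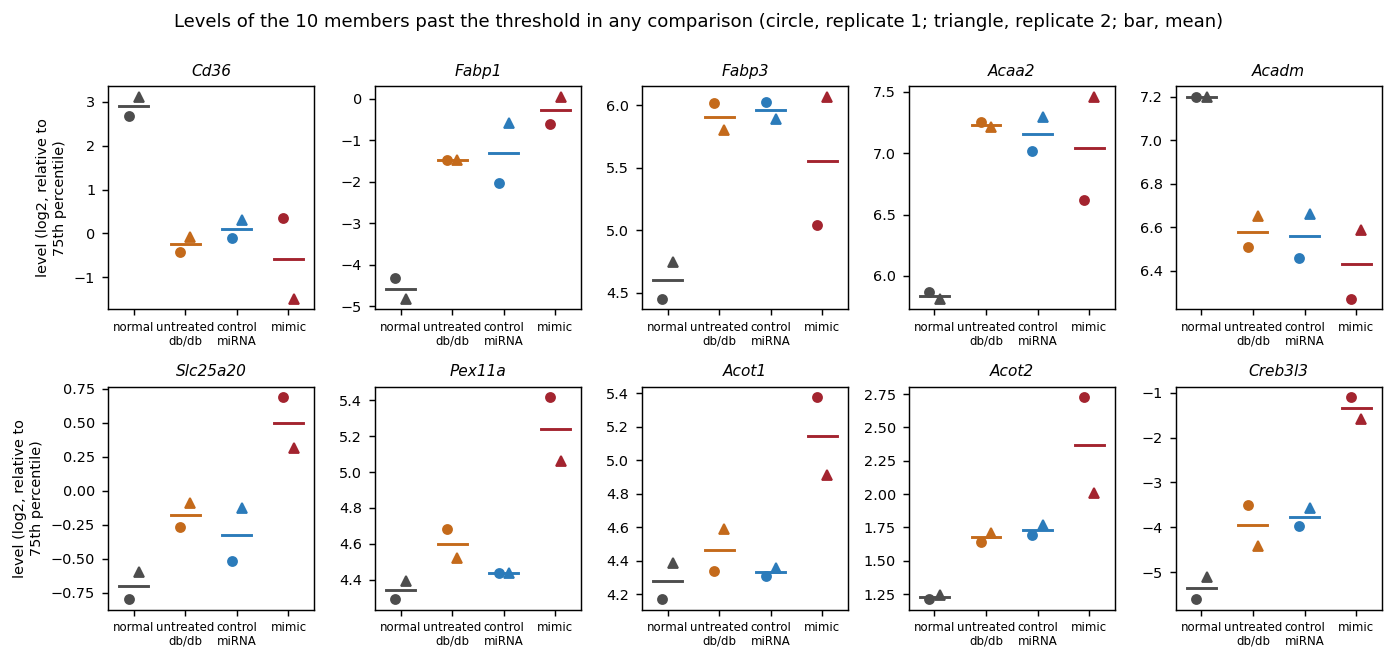
Level (log2 intensity relative to the array's 75th percentile) of the 10 members past the threshold in at least 1 comparison, by group. Circles are replicate 1, triangles replicate 2 and bars the mean of the 2 mice; each panel has its own axis. In Cd36, Fabp1, Fabp3, Acaa2 and Acadm the 2 normal mice lie apart from all 6 db/db mice, and in Slc25a20, Pex11a, Acot1, Acot2 and Creb3l3 the 2 mimic mice lie above the other 6.

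Among the genes of uptake and binding, Cd36 fell and Fabp1 rose. Cd36, a membrane protein that takes up long-chain fatty acids, had levels of 2.67 and 3.12 in normal mice. Its levels were -0.42 and -0.08 in untreated db/db mice, -0.11 and 0.30 with control miRNA, and 0.35 and -1.50 with the mimic. Both normal mice lay above all 6 db/db mice, and the mimic mice lay farthest apart, with replicate 2 the lowest of all 8. Cd36 fell by 3.14 on the log2 scale (SE 0.57) in untreated db/db (adjusted p = 0.0444), and by 3.47 (SE 0.57) after the mimic (adjusted p = 0.0212). The mimic difference was -4.39 without mimic replicate 1 and -2.54 without replicate 2. After control miRNA the difference of -2.80 (SE 0.57) did not pass (adjusted p = 0.0693). Fat tissue and macrophages also express Cd36. Normal replicate 1 had the highest Adipoq (0.39, against -3.26 in normal replicate 2 and -1.45 in control miRNA replicate 1). The Cd36 difference for untreated db/db was -3.37 without normal replicate 1 and -2.92 without normal replicate 2. Cd36 did not pass there without either normal mouse or either untreated mouse. Normal replicate 2 also lay above the untreated mice in some fat markers (Cfd 1.10 against -5.10 and -5.78), and below them in Fabp4 and Pck1. The part of fat RNA in the Cd36 difference was not tested. The summed level of 7 macrophage markers, most of it Csf1r, was 20.3 and 18.7 in normal mice and 9.00 to 15.0 in db/db mice. In mimic replicate 1 Adgre1, Cd68, Aif1, C1qa and C1qb lay above both normal mice, and Csf1r and Ptprc below them. The part of macrophages in the Cd36 difference was not tested.

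Fabp1, the liver-type fatty acid binding protein, moved the other way. Its levels were -4.33 and -4.83 in normal mice, where the second array was not well above background. They were -1.47 and -1.48 in untreated db/db mice, -2.03 and -0.58 with control miRNA, and -0.61 and 0.05 with the mimic. All 6 db/db mice lay above both normal mice. Fabp1 rose 8.63-fold in untreated db/db (log2 3.11, SE 0.49, adjusted p = 0.0322), 9.71-fold after control miRNA (log2 3.28, SE 0.49, adjusted p = 0.0373) and 19.7-fold after the mimic (log2 4.30, SE 0.49, adjusted p = 0.00823). With normexp background correction the log2 differences were 1.39, 1.58 and 2.37, and each still passed. Leaving out a control mouse moved the control miRNA difference to 4.01 or 2.55, neither of which passed (adjusted p = 0.0535 and 0.128). Fabp1 is also a gene of liver. Of 6 liver markers, Ttr, the carrier of thyroid hormone, rose in the same comparisons, by 2.52 (adjusted p = 0.0363), 2.50 (adjusted p = 0.0472) and 2.90 (adjusted p = 0.0145), from levels of -4.55 and -4.79 in normal mice, where 1 of 2 arrays was well above background. Alb was at -0.50 and -0.46 in normal mice and at 0.72 and 1.09 in untreated db/db mice, and did not pass. Serpina1a, Apoa2 and Fgb did not pass either, and Apoa1 was not well above background on any array. The summed level of the 6, most of it Serpina1a, was 141 and 148 in normal mice and 104 to 146 in db/db mice. The part of liver genes in the Fabp1 difference was not tested. In whole kidney, a change in the number of cells that express a gene and a change in RNA per cell cannot be told apart.

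Fabp3, the heart-type binding protein, had levels of 4.45 and 4.75 in normal mice. Untreated db/db mice were at 6.02 and 5.80, control miRNA mice at 6.03 and 5.89, and mimic mice at 5.04 and 6.07. The normal mice lay below all others, and mimic replicate 1 lay nearest to them. Fabp3 rose in the mean of the 3 db/db groups by 1.21 on the log2 scale (SE 0.27, adjusted p = 0.0399). It did not pass in the groups taken singly, where the adjusted p was 0.0818, 0.0917 and 0.116. A second Fabp3 probe gave 1.24 for the mean of the groups.

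**Figure D2:**
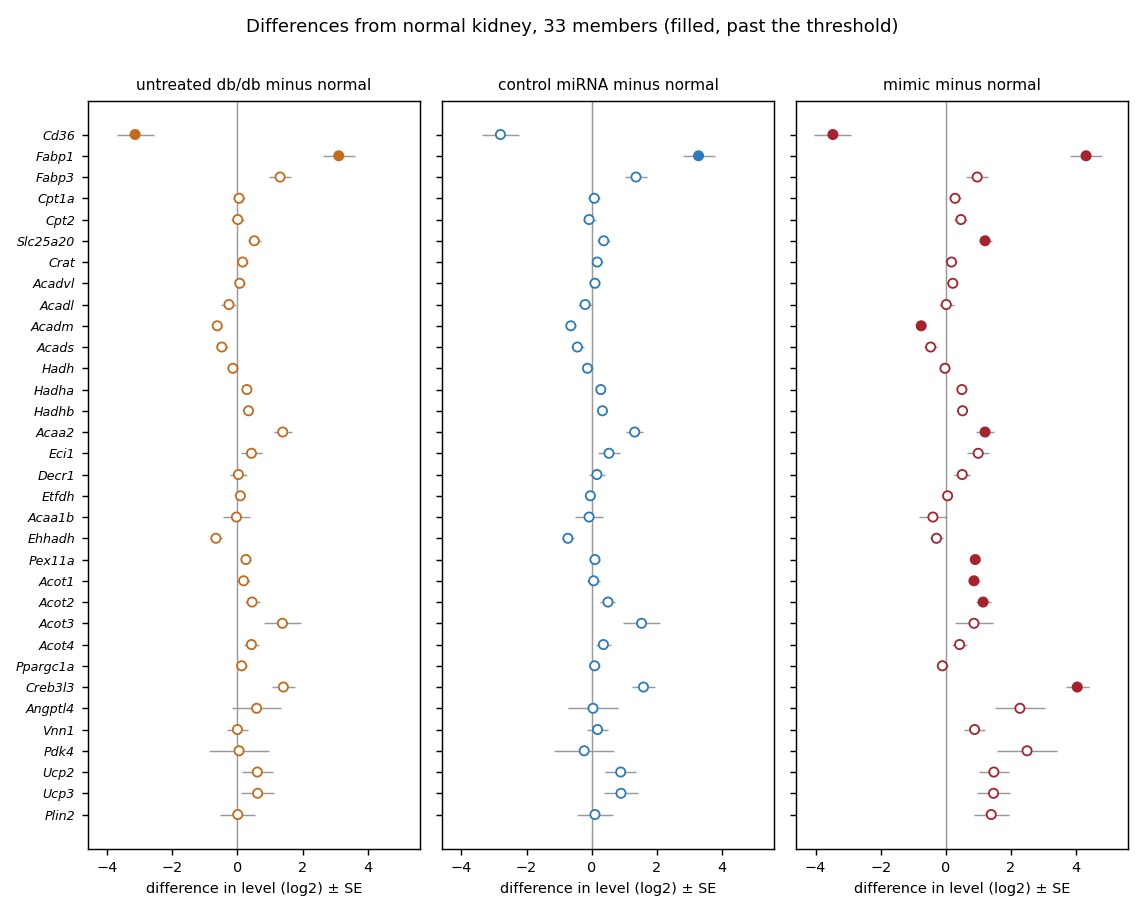
Difference in level from normal mice (log2, points, with SE as bars) for the 33 tested members in untreated db/db mice (left), after control miRNA (middle) and after the mimic (right), 2 mice a group. Filled points passed the adjusted threshold. Cd36 lies far to the left and Fabp1 far to the right in each panel, most genes of beta-oxidation lie within 1 log2 unit of 0, and filled points are most frequent for the mimic.

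In the carnitine shuttle 1 of 4 members passed. Slc25a20, the translocase that carries acylcarnitines across the inner mitochondrial membrane, had levels of -0.80 and -0.60 in normal mice, -0.27 and -0.09 in untreated db/db mice, -0.52 and -0.13 with control miRNA, and 0.69 and 0.31 with the mimic. The mimic mice were the 2 highest and the normal mice the 2 lowest. Slc25a20 rose by 1.20 after the mimic (SE 0.20, adjusted p = 0.0214) and by 0.70 in the mean of the 3 db/db groups (SE 0.16, adjusted p = 0.0439). Cpt1a, the rate-limiting acyltransferase of the outer membrane, differed from normal by 0.05 to 0.28 in the 3 db/db groups, and Cpt2, its partner on the inner membrane, by -0.08 to 0.46. Crat, which acts on short chains, differed by 0.16 to 0.17. None of these 3 passed in any comparison.

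Of the 11 members of mitochondrial beta-oxidation, 1 rose and 1 fell. Acaa2, the thiolase that ends each round, had levels of 5.87 and 5.81 in normal mice, 7.25 and 7.21 in untreated db/db mice, 7.02 and 7.29 with control miRNA, and 6.62 and 7.46 with the mimic. All 6 db/db mice lay above both normal mice. Acaa2 rose 2.46-fold in the mean of the 3 db/db groups (log2 1.30, SE 0.22, adjusted p = 0.0220) and 2.29-fold after the mimic (log2 1.20, SE 0.27, adjusted p = 0.0482). In untreated db/db mice the difference of 1.39 (SE 0.27) just missed the threshold (adjusted p = 0.0517).

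Acadm, the medium-chain acyl-CoA dehydrogenase, had a level of 7.20 in both normal mice, 6.51 and 6.65 in untreated db/db mice, 6.46 and 6.66 with control miRNA, and 6.27 and 6.59 with the mimic. The normal mice lay above all 6 db/db mice. Acadm fell by 0.67 in the mean of the 3 groups (SE 0.12, adjusted p = 0.0261) and by 0.76 after the mimic (SE 0.15, adjusted p = 0.0359). Its short-chain relative Acads differed from normal by -0.48, -0.44 and -0.47 in the 3 db/db groups and did not pass (adjusted p from 0.155 to 0.236). The long-chain and very-long-chain dehydrogenases Acadl and Acadvl differed by -0.26 to 0.01 and by 0.07 to 0.21.

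The subunits of the trifunctional protein, Hadha and Hadhb, differed from normal by 0.29 and 0.34 in untreated db/db mice and by 0.49 and 0.51 after the mimic, and neither passed (adjusted p = 0.0777 and 0.0730 after the mimic). The 2 genes are neighbours on chromosome 5. A dimmer Hadhb probe, designed to another transcript, differed from normal by -0.81 in untreated db/db mice, against 0.34 for the probe used. Hadh, Etfdh and Decr1 differed from normal by -0.14 to 0.50, and Eci1, which moves double bonds, by 0.43, 0.53 and 0.99. Eci1 and Decr1 were highest of all 8 arrays in mimic replicate 1, at 6.25 and 6.93, against 5.46 and 6.39 in replicate 2.

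The peroxisomal members did not move together. Pex11a, a membrane protein of dividing peroxisomes, had levels of 4.29 and 4.39 in normal mice, 4.68 and 4.52 in untreated db/db mice, 4.44 on both arrays with control miRNA, and 5.42 and 5.06 with the mimic. The mimic mice lay above the other 6. Pex11a rose by 0.90 against normal (SE 0.15, adjusted p = 0.0230). Ehhadh, the bifunctional enzyme, was at 4.37 and 4.61 in normal mice and at 3.56 to 4.25 in db/db mice, lower in all 6. Its difference of -0.56 in the mean of the 3 groups (SE 0.16) did not pass (adjusted p = 0.0694). Acaa1b, a peroxisomal thiolase, lay between 4.38 and 4.80 on 7 arrays and at 3.39 in mimic replicate 1.

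Among the acyl-CoA thioesterases, which release free fatty acids from their CoA esters, Acot1 (cytosolic) and Acot2 (mitochondrial) rose after the mimic. Acot1 had levels of 4.17 and 4.39 in normal mice, 4.34 and 4.59 in untreated db/db mice, 4.31 and 4.36 with control miRNA, and 5.38 and 4.91 with the mimic. Acot2 had levels of 1.21 and 1.24, 1.64 and 1.71, 1.69 and 1.77, and 2.73 and 2.01 in the same order. For both genes the mimic mice lay above the other 6. Against normal, Acot1 rose by 0.86 (SE 0.19, adjusted p = 0.0452) and Acot2 by 1.14 (SE 0.23, adjusted p = 0.0365); without mimic replicate 1 the adjusted p was 0.0790 for Acot1 and 0.0223 for Acot2.

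Acot3, a peroxisomal thioesterase, was at 0.43 and 0.80 in normal mice, 2.00 on both arrays in untreated db/db mice, 2.31 and 1.99 with control miRNA, and 0.52 and 2.44 with the mimic. Mimic replicate 1 lay with the normal mice and replicate 2 above all others, and no comparison passed. A second Acot3 probe disagreed for the mimic and for the mean of the 3 db/db groups. For the mimic it gave 2.12 against normal and passed (adjusted p = 0.0314 over all probes). The probe used gave 0.86 there (adjusted p = 0.344 over all probes). For the mean of the 3 groups the second probe gave 1.75 and passed (adjusted p = 0.0252), where the probe used gave 1.26 (adjusted p = 0.123). Acot4 differed from normal by 0.36 to 0.43 and did not pass. Acot1 to Acot4 lie side by side on chromosome 12, but their probes were distinct: over 1259 pairs of probes of different members or of Acot5, Acot6 and Ucp1, at most 30 of 60 bases matched in any alignment without gaps.

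Of the regulators, Creb3l3 rose. It encodes a membrane-bound transcription factor of liver and gut that works with PPAR-alpha on fasting genes. Its levels were -5.61 and -5.12 in normal mice, not well above background on either array, and -3.50 and -4.42 in untreated db/db mice. They were -3.98 and -3.57 with control miRNA and -1.09 and -1.58 with the mimic. The mimic mice lay above the other 6, and the normal mice below the other 6. Creb3l3 was at least 12.3-fold higher after the mimic than in normal mice (adjusted p = 0.00594) and at least 3.82-fold higher in the mean of the 3 db/db groups (adjusted p = 0.0112). These bounds set the brighter group's mean against the higher of the dim probe's signal and the lowest signal well above background on each normal array. They depend on the background correction: with normexp the log2 differences were 1.94 and 0.84, smaller than these bounds, and still passed. Ppargc1a, a coactivator of PPAR-alpha that drives mitochondrial biogenesis, lay between 2.68 and 3.14 on all 8 arrays and did not pass.

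Promoters are shown for the members past the threshold after the mimic that hold the letters of a PPAR half-site. PPAR-alpha and its retinoid X receptor partner bind 2 copies of AGGTCA with 1 base between them. RefSeq promoters of GRCm38.p6, from 250 bases before to 50 after the start, were held for 29 of the 34 members in 31 windows. AGGTCA, searched on both strands, was found in 10 of these 29 members (Acadm, Acadvl, Acot3, Acot4, Cd36, Cpt1a, Creb3l3, Fabp1, Plin2, Ucp3) and in 16.3% of all 32851 promoters. A looser repeat, 2 copies of AGGNCA with any 1 base between them, on both strands, was found in 0.381% of all promoters and in Fabp1 alone among the members, where it overlaps 1 of 2 half-sites. A match is a description of the letters and not a bound site. The 250 bases before the start follow, with half-sites and the repeat in capitals; Fabp1 lies at chr6:71199629-71199878 on the plus strand, and Creb3l3 at chr10:81092592-81092841, Cd36 at chr5:17835897-17836146 and Acadm at chr3:153944644-153944893 on the minus strand.
Fabp1: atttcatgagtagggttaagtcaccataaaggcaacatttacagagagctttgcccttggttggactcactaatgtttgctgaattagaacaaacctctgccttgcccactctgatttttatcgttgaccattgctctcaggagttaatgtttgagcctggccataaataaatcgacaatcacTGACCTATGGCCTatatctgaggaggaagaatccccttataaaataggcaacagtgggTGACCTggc
Creb3l3: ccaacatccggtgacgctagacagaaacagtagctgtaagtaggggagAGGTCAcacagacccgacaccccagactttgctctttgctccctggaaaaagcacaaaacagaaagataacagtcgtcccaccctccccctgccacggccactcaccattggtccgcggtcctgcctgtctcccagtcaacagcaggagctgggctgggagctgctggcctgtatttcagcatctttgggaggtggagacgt
Cd36: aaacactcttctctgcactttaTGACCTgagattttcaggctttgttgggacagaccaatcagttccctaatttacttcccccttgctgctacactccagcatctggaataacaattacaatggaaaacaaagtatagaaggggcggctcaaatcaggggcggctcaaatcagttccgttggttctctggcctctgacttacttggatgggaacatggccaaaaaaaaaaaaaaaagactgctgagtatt
Acadm: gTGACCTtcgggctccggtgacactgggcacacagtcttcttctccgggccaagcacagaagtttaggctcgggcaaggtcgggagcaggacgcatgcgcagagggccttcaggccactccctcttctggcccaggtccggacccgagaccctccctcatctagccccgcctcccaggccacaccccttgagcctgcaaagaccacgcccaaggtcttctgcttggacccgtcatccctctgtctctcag
The capitals lie in genes that moved in both directions: Fabp1 and Creb3l3 rose after the mimic against normal, and Cd36 and Acadm fell.

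The arrays read these genes with probes at other places. On mm9, the build of the array annotation, the Fabp1 probe lies at chr6:71154906-71154965, the Creb3l3 probe at chr10:80547080-80547139, the Cd36 probe at chr5:17288600-17288659 and the Acadm probe at chr3:153585469-153585528. Whether each lies in a coding exon was not analysed here.

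The second question was what the mimic did in db/db mice. Against control miRNA 0 of 33 members passed, as did 0% of all genes. Against untreated db/db mice 0 of 33 and 0% passed as well, and so did 0 and 0% for control miRNA against untreated mice. At an unadjusted p under 0.05, limma gave 8 members and 9.29% of all genes for the mimic against control miRNA. It gave 9 members and 13.9% for the mimic against untreated mice, and 0 members and 3.23% for control miRNA against untreated mice. The median difference over the members was 0.21 against control miRNA and 0.27 against untreated mice. Both mimic mice lay above both control mice in 13 members and below them in 0, where 16.5% of all genes lay above and 22.9% below. Against untreated mice the counts were 21 and 1, where 20.7% and 27.1% of all genes did.

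Creb3l3 had the lowest adjusted p of the members in both comparisons. It was 5.43-fold higher after the mimic than after control miRNA (log2 2.44, SE 0.36, adjusted p = 0.140) and 6.15-fold higher than in untreated mice (log2 2.62, SE 0.36, adjusted p = 0.119). All 6 of these arrays lay well above background, and the 2 mimic mice differed by 0.48. Pex11a followed, at 0.80 (SE 0.15, adjusted p = 0.176) and 0.64 (SE 0.15, adjusted p = 0.186). The 2 mimic mice lay above the other 6 arrays in 11 of 33 members (Acot1, Acot2, Angptl4, Cpt1a, Cpt2, Creb3l3, Pdk4, Pex11a, Plin2, Slc25a20, Vnn1) and below them in 0, where 6.73% of all genes lay above and 9.37% below. Cpt1a is among them by a margin under the spread between mice.

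The other PPAR-alpha targets were high in mimic replicate 1 in the main. Pdk4, a kinase that turns off pyruvate dehydrogenase and so spares glucose, had levels of -0.73 and 0.37 in normal mice, 0.19 and -0.46 in untreated db/db mice, -0.69 and -0.14 with control miRNA, and 3.77 and 0.85 with the mimic. The mimic mice were the 2 highest, but they lay 7.54-fold apart, while the other 6 lay within 1.10 of each other. The difference from control miRNA was 2.73 (SE 0.92, adjusted p = 0.452).

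Angptl4, a secreted inhibitor of lipoprotein lipase, was at 2.10 and 3.42 in normal mice, 3.46 and 3.24 in untreated db/db mice, 2.69 and 2.90 with control miRNA, and 6.16 and 3.89 with the mimic. Plin2, a coat protein of lipid droplets, was at 2.72 to 3.01 in the 6 mice without the mimic and at 5.17 and 3.33 with it. Both genes were highest in the mimic mice, which lay 4.82-fold apart for Angptl4 and 3.60-fold apart for Plin2. Neither passed against control miRNA (adjusted p = 0.454 and 0.550). Vnn1, a surface pantetheinase, was at 1.91 to 2.52 without the mimic and at 3.41 and 2.53 with it. Fgf21, a fasting hormone made in liver, was not well above background on any of the 8 arrays.

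Ucp2 and Ucp3, uncoupling proteins of the inner mitochondrial membrane and neighbours on chromosome 7, gave much the same pattern. Ucp2 had a mean level of -0.67 ± 0.47 (SD, n = 2) in normal mice, -0.03 and -0.08 in untreated db/db mice, -0.13 and 0.57 with control miRNA, and 1.45 and 0.15 with the mimic. Ucp3 had levels of -0.20 and -0.62, 0.34 and 0.09, 0.16 and 0.81, and 1.83 and 0.27 in the same order. For both, the normal mice were lowest and mimic replicate 1 highest, while mimic replicate 2 lay among the control mice. Against normal the mimic difference was 1.47 (SE 0.47, adjusted p = 0.101) for Ucp2 and 1.46 (SE 0.51, adjusted p = 0.119) for Ucp3.

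**Figure D3:**
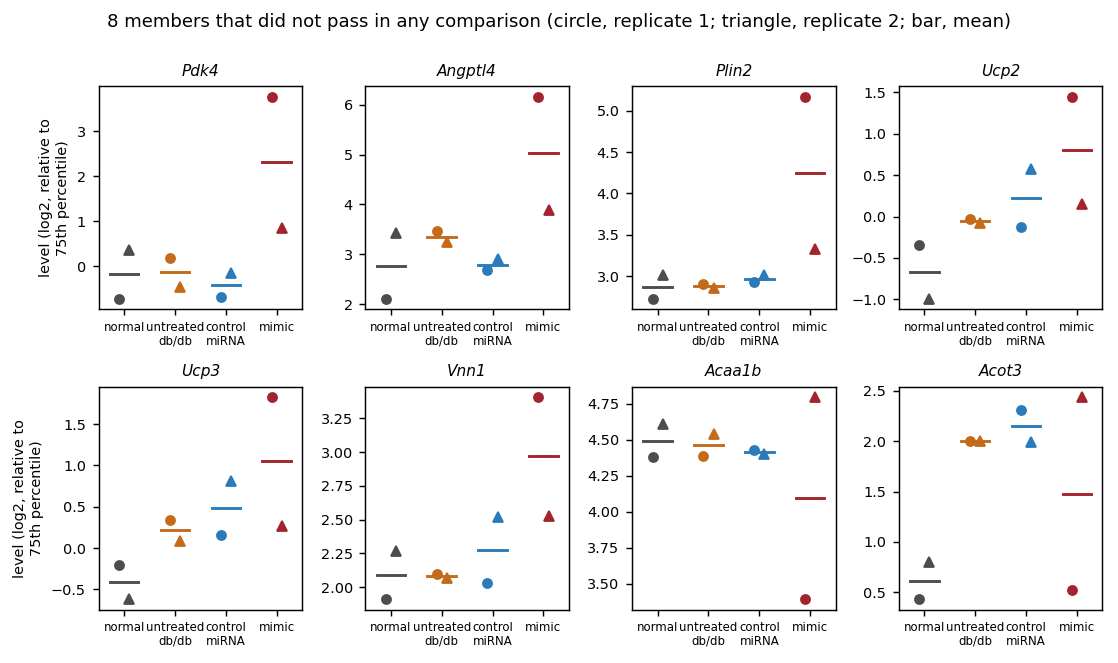
Level (log2 intensity relative to the array's 75th percentile) of 8 members that passed in no comparison, by group. Circles are replicate 1, triangles replicate 2 and bars the mean of the 2 mice. Mimic replicate 1 is highest in Pdk4, Angptl4, Plin2, Ucp2, Ucp3 and Vnn1 and lies lowest in Acaa1b and next to the normal mice in Acot3.

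The 2 mimic mice thus differed more among the members than other replicates did. They lay over 2-fold apart in 9 of 33 members, against 2 for the normal mice, 0 for the untreated and 1 for the control miRNA mice; over all genes the shares were 11.0%, 3.05%, 0.733% and 1.59%. Replicate 1 was over 2-fold higher than replicate 2 in 6 members (Cd36, Angptl4, Pdk4, Ucp2, Ucp3, Plin2) and over 2-fold lower in 3 (Fabp3, Acaa1b, Acot3), where 5.14% and 5.88% of all genes were. Replicate 1 was the highest of the 8 arrays in 18 members and the lowest in 4, where 21.5% and 32.8% of all genes were. Replicate 2 was the highest in 8 members and the lowest in 1, where 8.92% and 8.97% were.

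Which mimic mouse is kept decides whether members pass. Without mimic replicate 2, with the lone mouse assumed to vary like the other groups, 10 members rose against control miRNA (Acot1, Acot2, Angptl4, Creb3l3, Pdk4, Pex11a, Plin2, Slc25a20, Ucp3, Vnn1) and 3 fell (Acaa1b, Acot3, Fabp3), where 13.8% of all genes passed. Against untreated mice it was 11 and 4, where 18.6% passed. Pdk4 then stood at 4.18 (adjusted p = 0.00741) and Plin2 at 2.21 (adjusted p = 0.00181) against control miRNA. Without mimic replicate 1, 0 members passed in either comparison, where 0.501% and 0% of all genes did: Pdk4 stood at 1.27 (adjusted p = 0.590), Plin2 at 0.36 (adjusted p = 0.649) and Creb3l3 at 2.20 (adjusted p = 0.163).

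**Figure D4:**
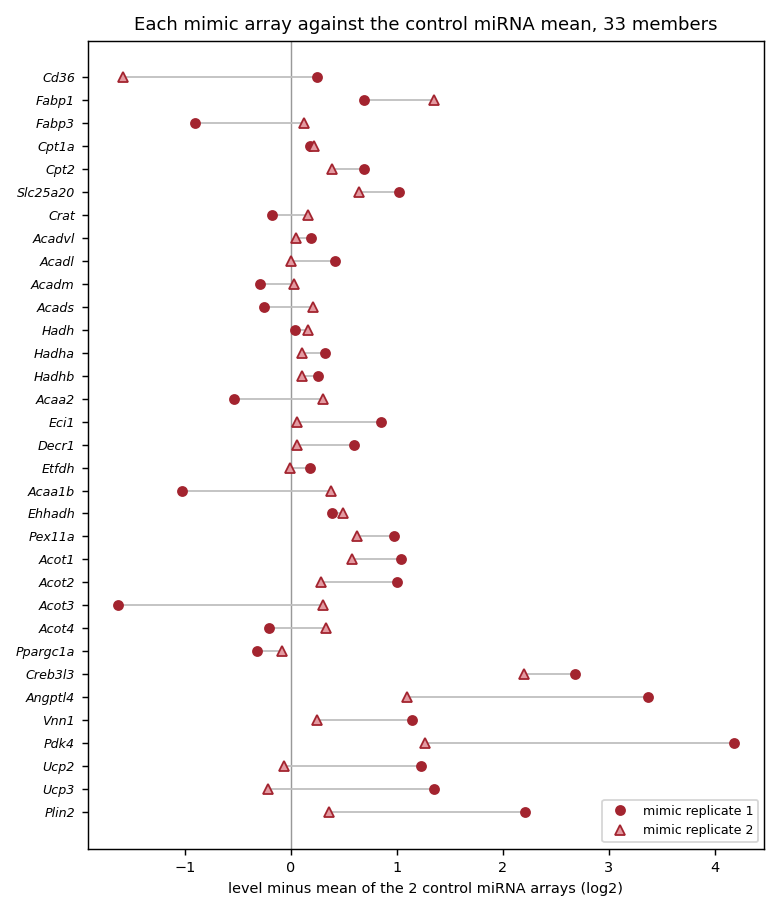
Level of each mimic mouse minus the mean of the 2 control miRNA mice (log2), for the 33 tested members; circles are mimic replicate 1, triangles replicate 2, and a line joins the 2 mice. The mice lie close together for Creb3l3 (2.68 and 2.20) and Pex11a (0.97 and 0.62) and far apart for Pdk4 (4.18 and 1.27) and Acot3 (-1.63 and 0.30).

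Other markers moved with replicate 1. Lcn2, an injury gene of the tubule, was at 4.91 in mimic replicate 1 and at -1.32 to -0.50 on the other 7 arrays, and Havcr1 was at -0.57 against -5.69 to -4.11. The proximal tubule genes Slc6a19 and Miox were at 1.98 and 7.44 there, against 3.08 to 4.26 and 8.54 to 8.98. Of the 12 proximal tubule markers, Slc22a6 (6.77) and Slc5a12 (5.01) were not lowest on that array. The summed level of 5 collecting duct markers was 29.6 there, against 51.5 to 73.4 on the other 7. That of 4 distal convoluted tubule markers was 46.2 (41.2 to 144 on the others), and that of 5 thick ascending limb markers was 230 (212 to 307). On this array Pdk4, Angptl4 and Plin2 were high together with the injury genes. Among the db/db mice Acaa1b, Acot3 and Fabp3 were lowest there, but only Acaa1b also lay below both normal mice. The part of the injury and tubule markers in the members' levels was not tested.

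**Figure D5:**
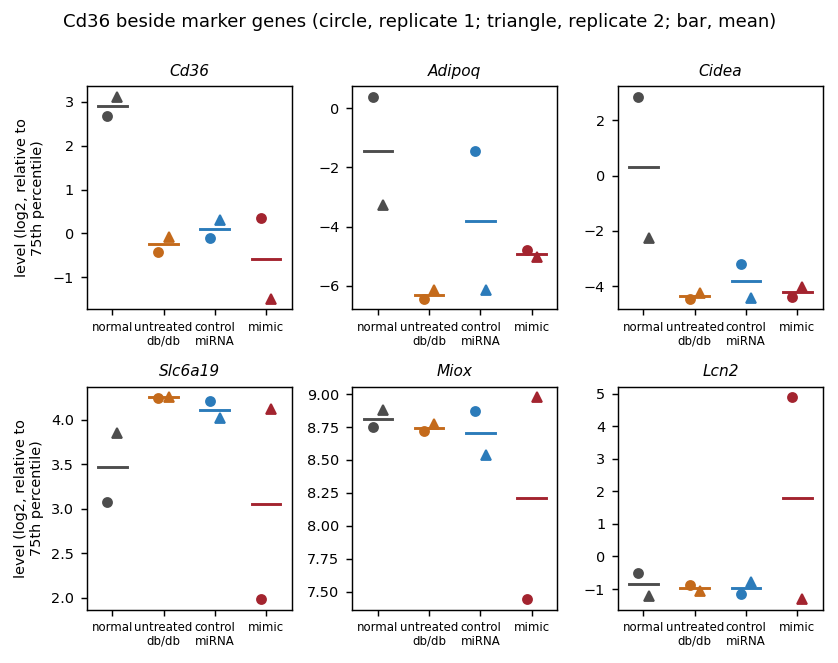
Level (log2 intensity relative to the array's 75th percentile) of Cd36 beside the fat genes Adipoq and Cidea, the proximal tubule genes Slc6a19 and Miox and the injury gene Lcn2, by group. Circles are replicate 1, triangles replicate 2 and bars the mean. Cd36 is high in both normal mice, and Adipoq and Cidea are highest in normal replicate 1. Of the fat markers not drawn, Lpl was high in both normal mice, and Lep and Plin1 were not highest in normal replicate 1. Mimic replicate 1 has the lowest Slc6a19 and Miox and the highest Lcn2.

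Beyond the members, 100 other genes of these pathways were listed in 8 groups, and 95 of the 99 on the array were tested. Against normal, 3 rose and 3 fell in untreated db/db mice, where 3.51% of all genes passed, and 2 rose and 2 fell with control miRNA (1.87% of all genes). With the mimic 8 rose and 6 fell (8.98%), and in the mean of the 3 db/db groups 10 rose and 10 fell (11.6%). In the 3 comparisons among db/db groups 0 passed, and the unadjusted shares of all genes given above apply. PPAR-alpha itself, Ppara, was at 3.03 and 3.43 in normal mice, 3.47 and 3.33 in untreated db/db mice, 3.86 and 3.42 with control miRNA, and 4.13 and 4.03 with the mimic. The mimic mice were the 2 highest, and the difference from normal of 0.85 (SE 0.20) just missed the threshold (adjusted p = 0.0519).

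A pair of cytochrome P450 genes outside the members, both known PPAR-alpha targets, rose. Cyp4a14, a fatty acid omega-hydroxylase, was at -3.60 and -4.93 in normal mice, the second not well above background, and at -0.22 to 1.03 in all 6 db/db mice. It rose by 4.71 in untreated db/db (SE 0.55, adjusted p = 0.0171), by 4.67 after control miRNA (adjusted p = 0.0251) and by 4.94 after the mimic (adjusted p = 0.00808). With normexp correction these differences were 3.05, 2.99 and 3.24, and each still passed. Cyp4a10 rose by 1.89 in the mean of the 3 groups (adjusted p = 0.0403).

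Other enzymes of the pathway fell. Lpl, the lipase that Angptl4 inhibits, was at 5.61 and 5.47 in normal mice and at 2.80 to 3.75 in db/db mice, and fell by 2.01 in untreated db/db mice (adjusted p = 0.0214), by 1.88 after control miRNA (adjusted p = 0.0325) and by 2.37 after the mimic (adjusted p = 0.00772). Fat also expresses Lpl, and the part of fat RNA in these differences was not tested. A pair of pyruvate dehydrogenase kinases moved in opposite directions in all 4 comparisons with normal: Pdk1 rose by 1.65 in untreated db/db mice (adjusted p = 0.0170), and Pdk3 fell by 1.15 (adjusted p = 0.0278). With the mean of all probes Pdk1 stood at 0.82 in untreated db/db mice, and at 0.71 after control miRNA, where it no longer passed (adjusted p = 0.0721). In the mean of the 3 groups Acot12, Bdh1, Amacr, Crot, Fabp5, Slc27a2, Aqp7 and Ppard also fell, by 0.40 (Aqp7) to 1.74 (Bdh1). Ppard was at 2.50 and 1.25 in the 2 normal mice. The higher value was in normal replicate 1, the array with the highest fat marker median. Rxrg, Nrip1, Acot5, Acot6, Acot11 and Plin3 rose in the same comparison, by 0.46 (Plin3) to 1.72 (Rxrg, 0.79 with normexp correction). Pparg, the fat cell receptor, did not pass, at -0.68.

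Of 16 other mitochondrial oxidation genes 0 passed in any comparison with normal, and the median difference in the mean of the 3 groups was -0.01, where 11.6% of all genes passed. At an unadjusted p under 0.05 in limma it was 2, 4, 3 and 7 of the 16 (untreated, control miRNA, mimic and mean). The share of all genes at that unadjusted threshold is not given here for comparisons with normal, so nothing is read from these counts. Of 16 other peroxisomal genes 2 fell and 0 rose, and of 8 other thioesterases 3 rose and 1 fell in that comparison. Over the 33 members its median was 0.37, with 26 above 0 and 7 below, where 43.7% of all genes lay above 0.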

How the data were processed

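RNA of 8 mouse kidneys, 2 in each of 4 groups, was hybridised to Agilent 1-colour arrays on 1 slide. Per the labels' protocols, total RNA was purified with an RNeasy kit and labelled with Cy3. Per the file headers, the authors deposited the spot intensity after background subtraction and detrending by Agilent Feature Extraction (12.0.3.1 in the submitters' processing notes). The authors' deposited series table holds a linear ratio, with scale and centring unstated: against rescaled scanner values r was 0.9995 to 0.9999, and the log2 ratio had a median of 0 in 100% of probes, so it is centred per probe and increases with expression. Column medians were 1.05, 1.08, 0.979, 0.992, 0.995, 0.971, 0.977 and 1.03 (normal, untreated, control miRNA, mimic).

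Each array's 59305 non-control spots were divided by their 75th percentile and put on the log2 scale. Outlier spots were left out and spots of a probe averaged, which kept 56601 of 56605 probes. The probe with the highest mean level stood for its gene. Genes well above background in both mice of 1 or more groups were tested, leaving 22363 genes. A group-means model over all 8 arrays was fitted with limma 3.58.1 in R 4.3.3 (lmFit and eBayes, 4 residual and 2.23 prior degrees of freedom) and tested on simulated data. All 34 members were accounted for; of 100 other pathway genes, those past the threshold and 6 set genes were to be named, and some of these are not reported here. The members and lists were chosen with earlier results of these data known. Of the members' 45 probes, 43 matched a RefSeq transcript of GRCm38.p6, each with the same symbol. Alternatives were normexp background correction, quantile normalization, the deposited table, 2 other filters, mean probes, fewer arrays in the fit, a variance trend, array weights, a replicate block and leaving out arrays. The labels number samples but do not say which came from separate cages or extractions. The p-values set group differences against the spread between these samples, pooled over the 4 groups and moderated across genes.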

Additional observations from a re-analysis of the deposited data

How the results depend on the processing

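The 19 member calls against normal kept their direction under every alternative run, and in 0 cases did an alternative call a member in the direction opposite to the reported value. The number of members past the threshold moved as follows. For untreated db/db against normal (2), it was 5 with normexp correction, 0 with no filter on dim probes, 6 with only the arrays compared, 4 with a variance trend, 5 with array weights and 6 without normal replicate 1 and mimic replicate 1 together. For control miRNA (1), it was 4, 0, 6, 3, 4 and 4 in these settings, and 0 with genes well above background on all 8 arrays, where Fabp1 is not tested. For the mimic (9), it was 5 with no filter, 0 with only the arrays compared and 2 with array weights. For the mean of the 3 db/db groups (7), it was 11 with normexp correction and 4 with no filter; a fit on fewer arrays is not possible there. Leaving out 1 array gave 0 to 7, 0 to 8, 1 to 20 and 0 to 20 in these 4 comparisons. It gave 0 to 15 for the mimic against untreated mice, 0 to 13 against control miRNA and 0 for control miRNA against untreated mice; each highest value came without mimic replicate 2, or, for the first 2, without either mimic mouse.

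Same-numbered samples deviated together only weakly (r from -0.02 to 0.16), so the numbers were not taken to pair the mice. With the replicate block the counts were 1, 0, 6 and 6 against normal and 0 among the db/db groups. Quantile normalization, the deposited table and mean probes left every count within 1.5 times. Genes past the threshold ranged from 20 to 3346 (untreated), 19 to 2551 (control miRNA), 355 to 6416 (mimic) and 170 to 5977 (mean) when 1 array was left out. With 2 mice a group, and with probes such as Fabp1 and Creb3l3 near background in normal mice, the size of a change is less certain than its direction. The causes of these shifts were not tested.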
